A study of Mus musculus with 6 samples.

Results

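Elastic fibres are the parts of the extracellular matrix that let a stretched lung recoil. Their transcripts were measured here in lung cells of mice given C1q, the protein that recognises targets and starts the classical complement pathway. The genes were chosen by name, 10 in all, among the 26890 genes of the deposited table. They are elastin (Eln), the microfibril genes Fbn1, Mfap4 and Mfap5, the fibulin genes Fbln1, Fbln2 and Fbln5, and the lysyl oxidase genes Lox, Loxl1 and Loxl2. All 10 were in the table and all 10 passed the filter on low counts, which kept 13473 genes. The mice were C57BL/6 of wild-type (WT) genotype. One group received saline and the other C1q at 20 µg per mouse by the intratracheal route, and lungs were taken at day 3. The protocol text of all 6 samples describes C1q only, and what marks a sample as saline is its treatment label. The sources used here give neither sex nor age. No group received another protein, so a response to C1q cannot be told apart from a response to an instilled protein. The lungs were digested with Liberase and DNase and the middle layer of a Percoll gradient was used, so the values are transcripts of released cells, not of the matrix left behind.

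Cells build an elastic fibre in steps. Fibroblasts, smooth muscle cells and other mesenchymal cells secrete soluble tropoelastin, which gathers on a scaffold of fibrillin microfibrils. Fibulins bridge tropoelastin, microfibrils and crosslinking enzymes. Lysyl oxidases, copper enzymes, then oxidise lysines of tropoelastin so that neighbouring chains bond into an insoluble network. In the lung most elastin is laid down while alveoli form, and adult tissue makes little of it.

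There were 3 saline and 3 C1q libraries of transcript 5′ ends, with total counts of 2577429 to 2991562 in saline and 2227619 to 3650793 in C1q. The labels do not say that each is a separate animal, so p-values measure the spread between these samples, which may be technical. No library was a repeat of another: in the 15 pairs the chi-square divided by its degrees of freedom was 4.74 to 14.6, above the value of counting error alone. Levels are CPM, counts scaled to library sizes adjusted by TMM, and 3 counts correspond to 0.83 to 1.35 CPM. The 10 genes held 0.108% to 0.145% of the counts in saline libraries and 0.229% to 0.27% in C1q libraries. The alveolar epithelial markers that define lung tissue, Sftpc among them, summed to 24620 to 46060 CPM in saline and 32730 to 35390 CPM in C1q. Across all genes edgeR's quasi-likelihood test called 4 higher after C1q at an adjusted p under 0.05 and 0 lower, with 531 at an unadjusted p under 0.05 in the lower direction and 1 lower by DESeq2.

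Lung cells of C1q-treated mice held more elastin transcript, and of the 10 genes Eln alone passed the edgeR test. That is 1 of 10, where 0.0297% of all tested genes were called higher. The other 9 had higher means after C1q without passing, where 48.2% of all tested genes had a log2 fold change above 0. In 7 of the 10, all 3 C1q libraries lay above all 3 saline libraries, where 8.12% of all tested genes did so, and 0 of the 10 lay below. An unadjusted p under 0.05 with a higher mean was met by 6 of the 10 and by 4.22% of all tested genes. The 10 log2 fold changes ran from 0.24 to 1.72 with a median of 0.59, beside a median of -0.01 over all 13473 genes. In these bulk samples, more transcript-bearing cells and more transcript per cell cannot be told apart. The genes were proposed with earlier results of these libraries known, so their shared direction is a description and carries no p-value.

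**Figure D1:**
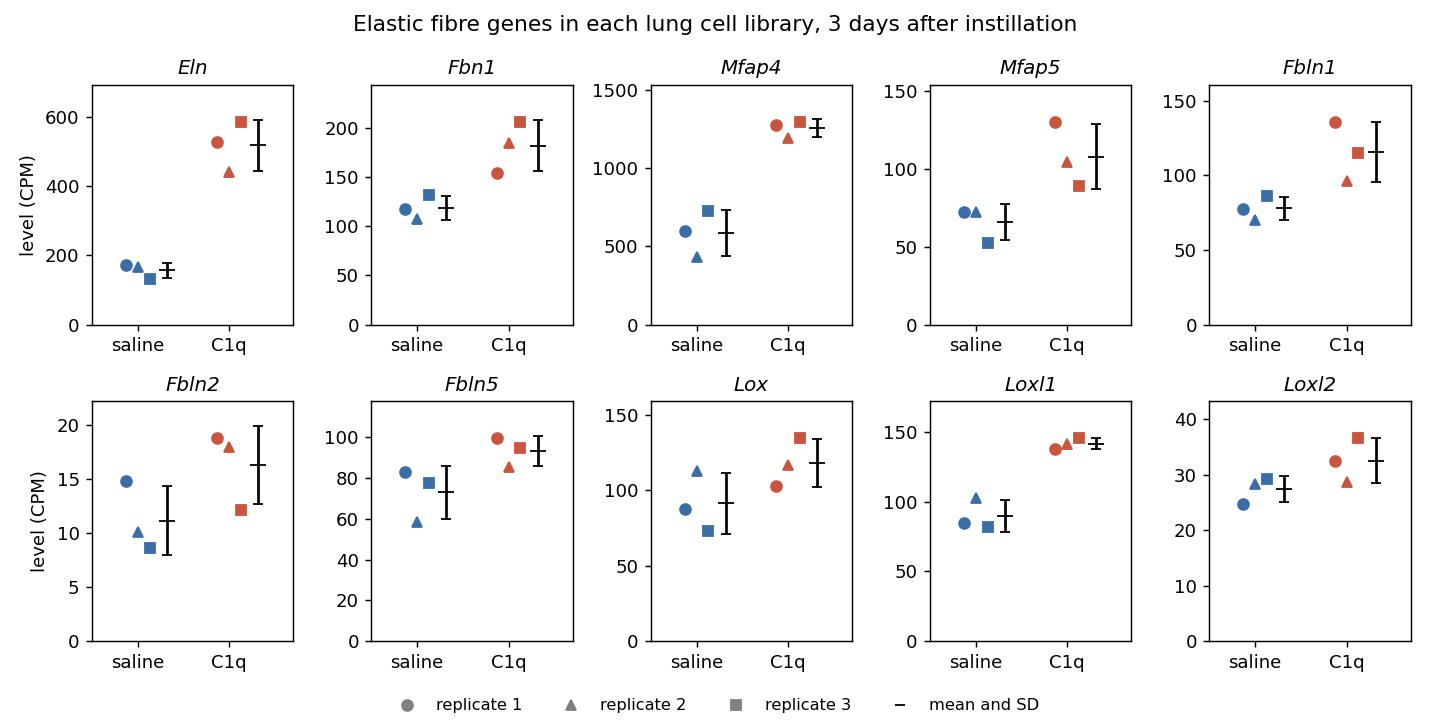
Level in CPM (vertical axes, each from 0) of the 10 elastic fibre genes in 3 saline libraries (blue) and 3 C1q libraries (red), with symbols for replicates and the mean and SD in black. The C1q libraries of Eln sit between 441 and 586 CPM and the saline libraries between 131.5 and 172 CPM, while the groups overlap for Fbln2, Lox and Loxl2.

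Eln encodes tropoelastin, the monomer of the elastic core. It was counted 535, 413 and 352 times in saline replicates 1 to 3, and 1903, 1250 and 1299 times in C1q replicates 1 to 3. Scaled for depth, the saline libraries stood at 172, 167 and 131.5 CPM and the C1q libraries at 526, 441 and 586 CPM. The groups were far apart: the lowest C1q library was 2.56 times the highest saline library, and the libraries within a group varied by 14.1% (coefficient of variation) in each. The mean rose from 157 ± 22.1 to 518 ± 73.1 CPM (SD, n = 3 each). In edgeR's quasi-likelihood test the log2 fold change was 1.72 ± 0.18 (SE, adjusted p = 0.00723), with a 95% interval of 2.52- to 4.31-fold. By p-value Eln ranked 2 among all genes tested. The call was lost without saline replicate 1 (edgeR adjusted p = 0.126) and without C1q replicate 1 (0.0871). In those fits 0 and 1 genes were called across the whole table, and the log2 fold change of Eln was 1.80 and 1.71. Over 14 alternatives the adjusted p of Eln ranged from 2.3e-16 to 0.126. The log2 fold change of Eln stayed between 1.61 and 1.83 in all 14.

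On GRCm38 (GENCODE M21), Eln spans chromosome 5 from 134702593 to 134747323 on the minus strand and is annotated as protein-coding. An antisense gene, Gm30003, overlaps it on the plus strand. The sources used here do not say whether counting used strand, so reads of the overlapping pair could not be separated by this table alone. Gm30003 had 0 to 8 counts in any library, against at least 352 for Eln. The other genes are on 8 further chromosomes and are also protein-coding. Fbn1 spans chromosome 2 from 125300594 to 125507993, Mfap5 chromosome 6 from 122505845 to 122529290, and Loxl1 chromosome 9 from 58287738 to 58313186. Fbln1 spans chromosome 15 from 85205949 to 85286535, Fbln2 chromosome 6 from 91212455 to 91272540, and Fbln5 chromosome 12 from 101746565 to 101819055. Loxl2 spans chromosome 14 from 69609068 to 69695834 and overlaps the antisense gene Gm27177, which had 3 to 14 counts in any library against at least 70 for Loxl2. Fbn1 and Lox also overlap annotated genes on the opposite strand, not analysed here.

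Summed by role, the microfibril genes were 2.01 times as high after C1q, beside 1.39 times for the fibulins and 1.4 times for the lysyl oxidases. All 3 microfibril genes, 2 of 3 fibulin genes and 1 of 3 lysyl oxidase genes had C1q libraries above every saline library, beside 8.12% of all tested genes. None passed the edgeR test over all genes. Mfap4 held most of the counts in the microfibril sum, and the ratio of means was 1.53 for Fbn1 and 1.64 for Mfap5. Mfap4, a fibrinogen-domain glycoprotein that binds elastin and fibrillin, stood at 599, 433 and 723 CPM in saline and 1277, 1193 and 1297 CPM in C1q. The C1q libraries were close together, varying by 4.39%, while the saline libraries varied by 24.8%. Its mean went from 585 ± 145 to 1256 ± 55.1 CPM (SD, n = 3 each), a log2 fold change of 1.10 ± 0.19 with a 95% interval of 0.67 to 1.53 (edgeR adjusted p = 0.192). This call depended on the fit: the adjusted p was 1.66e-05 with DESeq2, 4.62e-06 with no filter on low counts and 0.0267 without saline replicate 3, within a range of 4.62e-06 to 0.854 over the alternatives. Mfap4 lies on chromosome 11 from 61485431 to 61488900 and overlaps Mapk7 on the opposite strand. Mapk7 stood at 10.5 to 14.6 CPM in saline and 10.6 to 11.7 CPM in C1q, and its log2 fold change was -0.11 ± 0.25.

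Fbn1 encodes fibrillin-1, the main structural protein of microfibrils. It stood at 117, 107 and 132 CPM in saline and 154, 185 and 206 CPM in C1q. The gap between the groups was small, the lowest C1q library being 1.17 times the highest saline library. The log2 fold change was 0.61 ± 0.16, with a 95% interval of 0.26 to 0.97 (edgeR adjusted p = 0.41). Mfap5, also called MAGP-2, is a small glycoprotein bound to microfibrils. It stood at 72.3, 72.5 and 52.3 CPM in saline and 130.5, 104 and 88.9 CPM in C1q. Here C1q replicate 3, the highest library for Eln, Fbn1 and Mfap4, was the lowest of its group. The log2 fold change of Mfap5 was 0.72 ± 0.19, with an interval of 0.30 to 1.14 (edgeR adjusted p = 0.41). With no filter on low counts, where 373 genes were called, Fbn1 (adjusted p = 0.0468), Mfap5 (0.0104) and Loxl1 (0.0277) passed as well, the smallest adjusted p of each over its alternatives, which reached 0.854.

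The fibulins were less far apart between the groups. Fbln1, a fibulin of elastic fibres and basement membranes, stood at 77.8, 70.4 and 85.9 CPM in saline and 136, 95.9 and 115 CPM in C1q, with no overlap. Its log2 fold change was 0.57 ± 0.17, with an interval of 0.19 to 0.94 (edgeR adjusted p = 0.511). Fbln5, which tethers tropoelastin to microfibrils and to cell-surface integrins, stood at 82.9, 58.3 and 77.7 CPM in saline and 99.6, 85.4 and 94.8 CPM in C1q. These ranges only just parted, with the lowest C1q library 1.03 times the highest saline library, and they overlapped with upper-quartile scaling or library size only. Its log2 fold change was 0.35 ± 0.17, with an interval of -0.02 to 0.72. Fbln2, a fibulin of vessel walls and of developing tissue, was the least counted of the 10, at 46, 25 and 23 counts in saline and 68, 51 and 27 in C1q. That is 14.8, 10.1 and 8.59 CPM against 18.8, 18.0 and 12.2 CPM, and the groups overlapped. Its log2 fold change of 0.55 ± 0.28 had the widest interval of the 10, from -0.07 to 1.17.

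The libraries read transcript 5′ ends, and the promoter bases just ahead of the annotated start are shown for Fbln1 and Fbln5, 2 fibulin genes with separate groups. They come from RefSeq on GRCm38.p6, which held entries for 4 of the 10 genes (Fbln1, Fbln2, Fbln5 and Fbn1). Each run covers the 250 bases before the start, 5′ to 3′ on the gene's strand, at chr15:85205699-85205948 (plus strand) for Fbln1 and chr12:101819120-101819369 (minus strand) for Fbln5. Capitals mark matches, on either strand, to the GC box (GGGCGG) or the CCAAT box (CCAAT).
Fbln1: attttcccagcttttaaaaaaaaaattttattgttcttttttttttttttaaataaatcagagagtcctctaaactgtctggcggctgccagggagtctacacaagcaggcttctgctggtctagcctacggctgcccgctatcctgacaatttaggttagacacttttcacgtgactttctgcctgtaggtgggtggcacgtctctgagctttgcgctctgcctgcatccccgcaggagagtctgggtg
Fbln5: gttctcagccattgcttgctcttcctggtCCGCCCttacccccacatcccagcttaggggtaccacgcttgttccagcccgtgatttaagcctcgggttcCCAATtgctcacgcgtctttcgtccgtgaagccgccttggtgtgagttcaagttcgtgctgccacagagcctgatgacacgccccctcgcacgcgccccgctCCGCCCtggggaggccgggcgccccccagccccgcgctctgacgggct

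The Fbln5 stretch is 65.2% G or C with 21 CpG pairs, and the Fbln1 stretch is 46.4% G or C with 7, where the median over 32851 windows of this length was 52.4% and 6. The Fbln5 stretch holds a GC box beginning 221 bases and another 48 bases before the start, both read on the opposite strand, and a CCAAT box beginning 150 bases before it. The GC box occurs in 32.7% of all windows and the CCAAT box in 33.8%. Neither stretch holds the letters TATAAA (12.4% of windows), the AP-1 motif TGANTCA (6.75%) or the TEAD motif GGAATG (12.6%). A match or its lack describes these letters only. RefSeq lists another start for each gene, not shown.

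Among the lysyl oxidases, Loxl1 was the one with separate groups. Loxl1, which acts mainly on elastin, stood at 84.5, 103 and 81.8 CPM in saline and 137, 141 and 145 CPM in C1q. The 3 C1q libraries varied by only 2.8%, the smallest spread of any of the 10 genes in that group. The log2 fold change was 0.66 ± 0.15, with an interval of 0.33 to 0.98 (edgeR adjusted p = 0.307). Lox, the founding enzyme of the family, which acts on elastin and collagen, stood at 87.8, 113 and 73.2 CPM in saline and 103, 116 and 134.5 CPM in C1q. Saline replicate 2 lay inside the C1q range. Its log2 fold change was 0.37 ± 0.19, with an interval of -0.04 to 0.78. Loxl2, which acts mainly on basement membrane collagen, stood at 24.8, 28.3 and 29.1 CPM in saline and 32.4, 28.6 and 36.6 CPM in C1q, and C1q replicate 2 lay inside the saline range. Its log2 fold change of 0.24 ± 0.18 was the smallest of the 10, with an interval of -0.14 to 0.63. The edgeR adjusted p of Fbln2, Fbln5, Lox and Loxl2 lay between 0.606 and 0.706. For Lox and Loxl2 the intervals include no change as well as a rise of 1.71-fold for Lox and 1.55-fold for Loxl2.

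**Figure D2:**
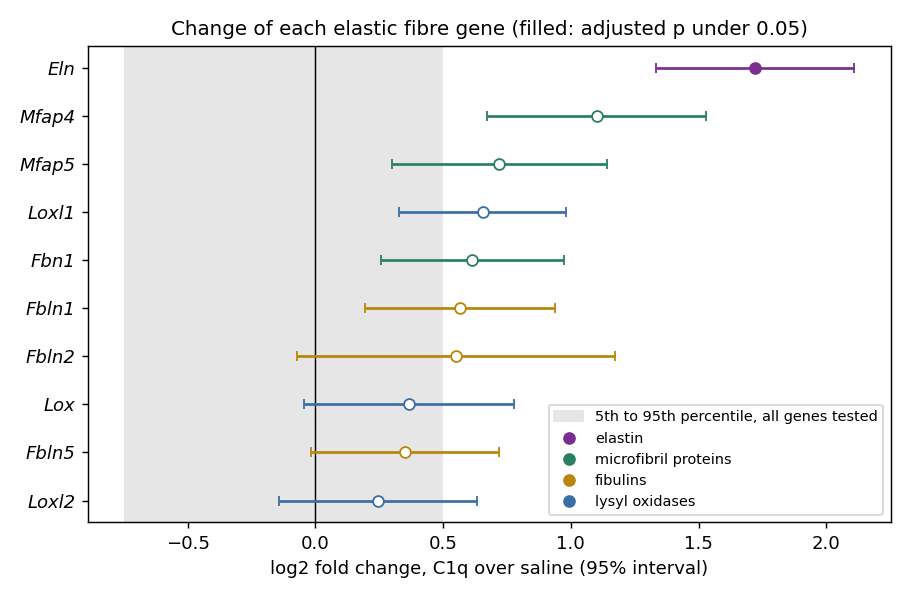
Log2 fold change of C1q over saline (horizontal axis) with its 95% interval for the 10 genes, coloured by role, with a filled point where the edgeR adjusted p was under 0.05. The grey band spans the 5th to 95th percentile of all genes tested, -0.75 to 0.49. Eln at 1.72 and Mfap4 at 1.10 have intervals wholly above the band.

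Counts of elastin relative to most of its partners were higher after C1q within the same library. A ratio of counts inside a library does not depend on how that library is scaled, so the log2 ratio of Eln to each of the other 9 genes was compared. In 8 of 9 the 3 C1q ratios lay above the 3 saline ratios, with a difference of means from 1.01 for Mfap5 to 1.48 for Loxl2. Each of these 8 had a two-sided exact permutation p of 0.1, the smallest that 3 against 3 can give, or 0.112 adjusted over the 9 ratios. So at this sample size the ratios cannot reach 0.05. No share over all genes was computed for such ratios. The lowest C1q library of Eln was 2.56 times its highest saline library, so a partner with no change would tend to give separate ratios too. The 8 of 9 therefore largely restates the difference in Eln. The exception was Mfap4: the log2 ratio of Eln to Mfap4 was -1.80, -1.37 and -2.46 in saline and -1.28, -1.44 and -1.15 in C1q (exact p = 0.2). Per 100 Mfap4 counts there were 28.7, 38.6 and 18.2 Eln counts in saline and 41.2, 36.9 and 45.2 in C1q, and the groups overlapped through saline replicate 2 and C1q replicate 2. Of all counts on the 10 genes, Eln took 9.43% to 14.4% in saline libraries and 18.3% to 21.6% in C1q libraries.

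**Figure D3:**
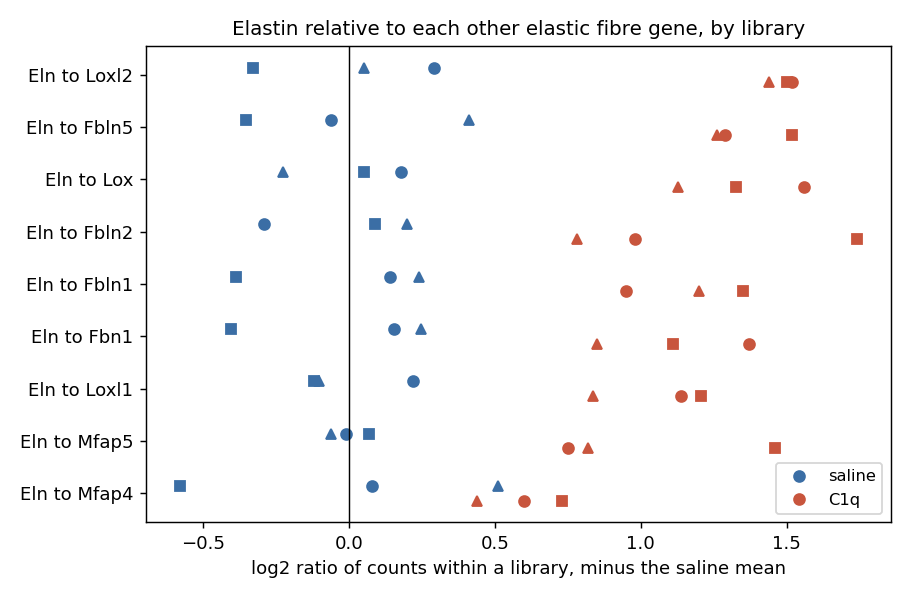
Log2 ratio of Eln counts to the counts of each other gene within a library, minus the saline mean of that ratio (horizontal axis), for saline (blue) and C1q (red) libraries, with circles, triangles and squares for replicates 1 to 3. The colours separate in 8 of 9 lines and overlap for Mfap4.

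Inside the C1q group the genes did not share 1 order of libraries. C1q replicate 3 was the highest for 6 of the 10 genes (Eln, Fbn1, Mfap4, Lox, Loxl1 and Loxl2) and replicate 1 for the other 4 (Mfap5, Fbln1, Fbln2 and Fbln5). C1q replicate 2 was the highest for 0 and the lowest for 5.

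The genes whose profile over the 6 libraries was most like that of Eln were not other elastic fibre genes. Likeness was the root mean square distance between log2 CPM values centred on each gene's own mean, over 12491 genes with a mean of at least 5 CPM. The nearest was Timp1, an inhibitor of metalloproteinases, at 0.17, followed by Serpinb2, an inhibitor of plasminogen activators, at 0.231. Retnla, a secreted protein of alternatively activated macrophages, was at 0.268, the potassium channel subunit gene Kcne4 at 0.284, and the macrophage elastase gene Mmp12 at 0.291. Serpinb2 stood at 2.57, 2.02 and 1.49 CPM in saline and 12.7, 9.17 and 9.93 CPM in C1q (log2 fold change 2.36 ± 0.38, edgeR adjusted p = 0.118). Serpinb2 and Mmp12 were under the filter level of 3.55 CPM in all 3 saline libraries and over it in all 3 C1q libraries, so they could enter the test only with a difference. Timp1, Retnla and Kcne4 are the other 3 genes called across the whole table, so this likeness restates a shared difference between the groups. Of the elastic fibre genes Mfap4 was nearest to Eln, at 0.439 and place 24, and Loxl2 farthest, at 0.763 and place 1634.

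Beyond the 10 genes, 64 further genes of elastic fibre assembly, breakdown and sensing were listed, in 6 groups. Of these, 50 were tested and 1, Timp1, rose, where 0.0297% of all tested genes were called higher. The C1q libraries lay above all saline libraries for 13 of the 50, beside 8.12% of all genes, and below them for 1, beside 5.96%. The 13 include Mmp12 and Loxl4, which reached the filter level in 0 and 1 of 3 saline libraries and in all 3 C1q libraries. Both entered the test through the C1q libraries, which favours such a separation. Among the 50, edgeR called 0 lower and 0 had a lower mean at an unadjusted p under 0.05, and DESeq2 and limma-voom also called 0 lower. When every gene was kept whatever its counts, edgeR called 1 of the listed genes lower, Atox1, a copper chaperone, at a log2 fold change of -0.70 (adjusted p = 0.0329). With the filter Atox1 was at 63.4 ± 49.4 CPM after saline and 38.0 ± 9.77 CPM after C1q (-0.72 ± 0.46, edgeR adjusted p = 0.676), and the groups overlapped.

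**Figure D4:**
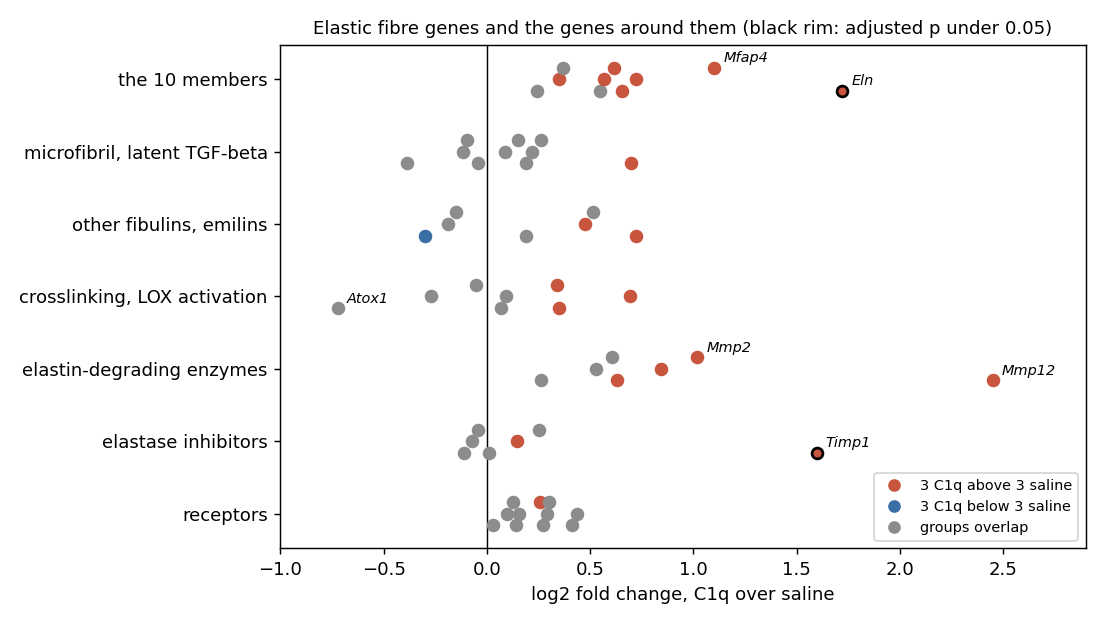
Log2 fold change of C1q over saline (horizontal axis) of each tested gene, by group, with red where all C1q libraries lay above all saline libraries, blue where they lay below, and grey where the groups overlapped. Outside the 10 genes a black rim, for an edgeR adjusted p under 0.05, marks Timp1 alone, and Mmp12 stands farthest to the right at 2.45.

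Other microfibril genes and the latent TGF-beta binding proteins that sit on microfibrils had small log2 fold changes. Of 10 tested, 0 passed over all genes, and the median log2 fold change was 0.12. A higher mean at an unadjusted p under 0.05 was met by 1, beside 4.22% of all tested genes. That 1 gene was Adamtsl2, a secreted binding partner of fibrillin-1, at 34.7 ± 4.75 CPM after saline and 56.3 ± 4.83 CPM after C1q (SD, n = 3 each; log2 fold change 0.70 ± 0.16, edgeR adjusted p = 0.345). Mfap2, the close relative of Mfap5, was at 66.1 ± 4.35 and 75.2 ± 9.22 CPM (0.19 ± 0.15), and Adamtsl5 at -0.39 ± 0.23. Fbn2, the fibrillin of developing tissue, had 0 to 8 counts in any library and was not tested.

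Of 7 tested genes for other fibulins and for emilins, 0 passed over all genes. An unadjusted p under 0.05 was met by 2, both higher, beside 4.22% of all tested genes. Emilin1, a glycoprotein at the surface of the elastin core, was at 53.1 ± 5.92 CPM after saline and 73.7 ± 5.62 CPM after C1q (log2 fold change 0.47 ± 0.15, edgeR adjusted p = 0.532). Mmrn1, of the same family and found in platelets and endothelium, had a log2 fold change of 0.72 ± 0.25, and Emilin2 of 0.51 ± 0.26. Mmrn2, an endothelial relative, was the 1 gene of the 50 whose C1q libraries lay below all saline libraries, at -0.30 ± 0.19; it was singled out after its value was seen.

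Genes for other crosslinking enzymes and for LOX activation had 0 of 8 called. A higher mean at an unadjusted p under 0.05 was met by 1, beside 4.22% of all tested genes. This was Pcolce, an enhancer of the procollagen C-proteinase, at 96.1 ± 3.13 CPM after saline and 121 ± 17.7 CPM after C1q (log2 fold change 0.34 ± 0.15, edgeR adjusted p = 0.606). Bmp1, a protease that releases the LOX propeptide, was at 0.35 ± 0.19 and Loxl4 at 0.69 ± 0.39, the latter from a saline level of 3.11 CPM, with 1 of 3 saline libraries at the filter level.

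Of 7 tested enzymes that can degrade elastin, 0 passed over all genes with edgeR, while DESeq2 called Mmp12 and Mmp2. Apart from Mmp12, which met the filter through the C1q libraries only, 4 of 6 had a higher mean at an unadjusted p under 0.05, beside 4.22% of all tested genes, and the median log2 fold change was 0.62. Mmp12 was counted 6, 4 and 5 times in saline and 37, 30 and 21 times in C1q, a log2 fold change of 2.45 ± 0.36 (edgeR adjusted p = 0.0905). Mmp2, a gelatinase made by mesenchymal cells, was at 92.9 ± 14.1 CPM after saline and 189 ± 46.0 CPM after C1q (1.02 ± 0.20, edgeR adjusted p = 0.245). Ctsk, an elastin- and collagen-cutting cathepsin, was at 40.3 ± 5.12 and 72.0 ± 21.6 CPM (0.84 ± 0.22). The neutrophil elastase gene Elane had at most 1 count in any library, and Ctsg likewise.

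Elastase inhibitors had 1 of 7 called, beside 0.0297% of all tested genes. Timp1 rose from 11.8 ± 2.1 to 35.8 ± 0.725 CPM (log2 fold change 1.60 ± 0.20, edgeR adjusted p = 0.0316), with 35, 35 and 27 counts in saline and 131, 99 and 80 in C1q. The call was lost without saline replicate 1 (0.471), C1q replicate 1 (0.297), C1q replicate 2 (0.109) or C1q replicate 3 (0.0704), and the adjusted p was as low as 2.74e-08 with no filter. The 2 other inhibitors with the smallest p-values, Timp2 and Timp3, were at 0.14 ± 0.14 and -0.11 ± 0.15, and the list median was 0.01.

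Receptors of elastin and microfibrils, among them integrin subunits and the subunits of the elastin receptor complex, had 0 of 11 called. All 11 log2 fold changes were positive, beside 48.2% of all tested genes, with a median of 0.26. A higher mean at an unadjusted p under 0.05 was met by 1, beside 4.22%. Lgals3, the gene of the elastin-binding lectin galectin-3, was at 0.43 ± 0.19, and Neu1 and Ctsa, which form the receptor complex with Glb1, were at 0.41 ± 0.20 and 0.26 ± 0.14.

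Markers of the cells that make elastic fibres differed less than Eln did. Of 13 fibroblast markers 0 passed over all genes with edgeR. An unadjusted p under 0.05 was met by 5, all higher, beside 4.22% of all tested genes. In 9 of the 13 the C1q libraries lay above all saline libraries, against 8.12% of all genes. The 3 with the smallest p-values, Pi16, Clec3b and Dpt, had log2 fold changes of 0.66 ± 0.21, 0.53 ± 0.17 and 0.48 ± 0.16. The markers did not move alike: 11 had a positive log2 fold change and 2 a negative one, Inmt (-0.21 ± 0.23) and Col13a1 (-0.004 ± 0.15). Pdgfra was at 0.08 ± 0.15. The summed level of the 13 was 7580 to 10090 CPM in saline and 8676 to 10390 CPM in C1q, most of it from Inmt and Gsn. Without those 2 genes, a choice made after seeing the data, the sum was 1930 to 2190 CPM in saline and 2440 to 2570 CPM in C1q, 1.22 times higher on average. Eln per count of the remaining 11 markers was 0.0784, 0.0849 and 0.0682 in saline and 0.215, 0.172 and 0.24 in C1q, a 2.71-fold difference. Per count of Pdgfra, a general fibroblast marker, Eln stood at 0.673, 0.626 and 0.545 in saline and 2.17, 1.42 and 2.32 in C1q. The ratio of means was 3.21 for Pdgfra, 2.78 for Tcf21, 2.6 for Dcn, 3.34 for Col13a1 and 3.38 for the smooth muscle marker Acta2. Relative to all 13 markers, Eln, Mfap4, Mfap5 and Loxl1 had separate groups, with ratios of means of 3.25, 2.02, 1.61 and 1.53. Fbn1, Fbln1 and Fbln5 then overlapped, and no share over all genes was computed on this scale. Ratios to all 13 markers are not comparable with the 2.71 for Eln per 11 markers, which was not computed for the other genes.

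**Figure D5:**
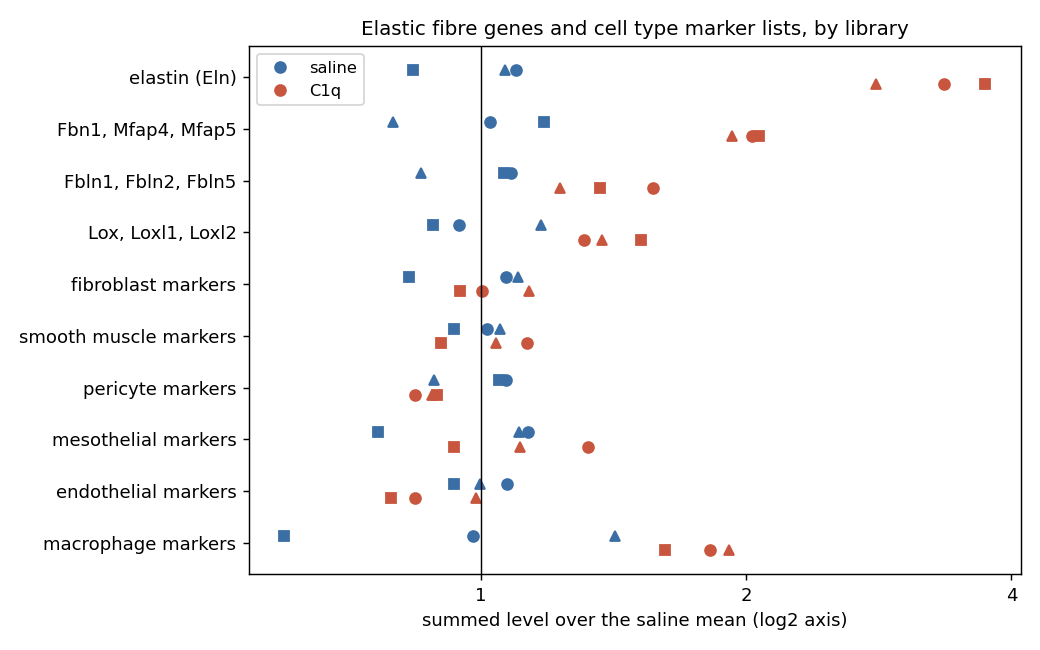
Summed level in each library over the saline mean of that sum (horizontal axis, log2 scale) for the elastic fibre genes by role and for cell type marker lists, with saline in blue, C1q in red, and circles, triangles and squares for replicates 1 to 3. Eln is at 441 to 586 CPM in C1q against 131.5 to 172 CPM in saline, and the fibroblast, smooth muscle, pericyte, mesothelial and endothelial sums overlap between the groups.

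Smooth muscle is another source of elastin, and its markers overlapped between the groups. Of 11 smooth muscle markers 0 passed and 1 had an unadjusted p under 0.05 (Hhip, higher), beside 4.22% of all tested genes. Separate groups were found for 0, and the median log2 fold change was 0.01. Their sum was 914.8 to 1031 CPM in saline and 883.9 to 1106 CPM in C1q. Of 8 pericyte markers 0 passed and 4 had an unadjusted p under 0.05, all lower, where 3.94% of all tested genes did so, led by Higd1b at -0.87 ± 0.25. In this list 5 log2 fold changes were negative and 3 positive. The C1q libraries lay below all saline libraries for 3 of the 8, beside 5.96% of all genes. They lay above for 1, Kcnj8 (0.67 ± 0.31), beside 8.12%. The sums were 475 to 574 CPM in saline and 453 to 479 CPM in C1q. Postn, also listed with the crosslinking genes, held the largest part, at 193 ± 39.0 CPM after saline and 206 ± 13.6 CPM after C1q (0.09 ± 0.17). A sum without Postn was not computed, so the overlap of the sums may not hold for the other pericyte markers. Mesothelial markers summed to 210 to 311 CPM in saline and 256 to 364.5 CPM in C1q. Of 5 tested, 0 were called, and 1 was higher and 1 lower at an unadjusted p under 0.05, beside 4.22% and 3.94%. All 10 endothelial markers had negative log2 fold changes, where 48.2% of all tested genes had one above 0. Among the 10, 0 were called and 0 had an unadjusted p under 0.05. The sums were 3666 to 4206 CPM in saline and 3108 to 3886 CPM in C1q.

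The summed macrophage, proliferation and dissociation lists also had separate groups, with 0 genes called by edgeR. Macrophage markers had C1q libraries above all saline libraries for 6 of 10, beside 8.12% of all genes, and 5 had a higher mean at an unadjusted p under 0.05, beside 4.22%. Their sums were 991 to 2353 CPM in saline and 2679 to 3166 CPM in C1q, a ratio of 1.78, and Chil3 held most of the counts, at 1369 ± 641 CPM after saline and 2558 ± 233 CPM after C1q. Without Chil3, a choice made after seeing the data, the other 9 summed to 242 to 323 CPM and 362 to 438.9 CPM, a ratio of 1.37. In the list of 10 the median log2 fold change was 0.56, with 9 positive and 1 negative. Marco and Siglecf, named after their values were seen, had log2 fold changes of -0.13 ± 0.28 and 0.04 ± 0.21. The listed proliferation genes summed to 194 to 218 CPM in saline and 273 to 361.5 CPM in C1q. Pcna held most of this sum, at 163 ± 19.2 CPM after saline and 214 ± 24.7 CPM after C1q. Ccna2 and Cdk1 of that list each reached the filter level in 1 of 3 saline libraries, so no count over its tested genes is given. Genes induced by tissue dissociation lay the other way: 5 of 10 had C1q libraries below all saline libraries, against 5.96% of all genes. Of the 10, 0 passed and 2 had a lower mean at an unadjusted p under 0.05, beside 3.94% of all tested genes. The sums were 7916 to 8630 CPM in saline and 6927 to 7009 CPM in C1q. Lymphoid markers summed to 174 to 262 CPM in saline and 146 to 252 CPM in C1q, and haemoglobin genes to 117 to 271 and 37.9 to 189 CPM, with 0 called in either list and 1 and 0 genes at an unadjusted p under 0.05. DESeq2 called C1qa of the macrophage list and Ccna2 of the proliferation list and no other marker, and limma-voom called 0. No marker in these lists was at 0 in every library. The part of these cell types and of the dissociation response in the elastin result was not tested.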

How the data were processed

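Poly(A) RNA from digested lung cells was read at transcript 5′ ends, per the labels' protocols. The authors deposited raw counts, 1 whole number for each gene symbol in each sample. Per the submitters' processing notes, the tools included Bowtie2 2.4.2 and cutadapt 2.1.0, with GRCm38. The sources used here do not give the counting step, annotation, strand handling or use of unique molecules, and intervals may be too narrow if PCR copies were counted.

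Samples were grouped by their treatment label and numbered 1 to 3 within a group in the order of deposition. The test was edgeR 4.0.16 with TMM scaling, on genes kept by filterByExpr (glmQLFit, glmQLFTest, two-sided), with Benjamini-Hochberg adjustment over all 13473 genes and a threshold of 0.05. The kept genes held 98.2% to 99.2% of each library's counts. Standard errors and 95% intervals come from the F statistic. DESeq2 1.42.0 and limma 3.58.1 (voom) were alternatives, with other scalings, filters and removal of each library. Ratios used counts plus 0.5 and an exact permutation test. Members and lists were chosen with earlier results of these data known. The rule named all 10 genes, in each other list any called gene or else at most the 3 with the smallest p-value, and the 5 genes nearest to Eln. Genes named outside it (Atox1, Mmp14, Mmrn2, Fbn2, Elane, Ctsg, Glb1, Sftpc, Marco, Siglecf, Pdgfra, Inmt, Gsn, Timp2, Timp3, Postn, Kcnj8, Col13a1, Tcf21, Acta2, Dcn, Pcna and the overlapping genes) were chosen after their values were seen. Mmp7 and Serpina1b to Serpina1e were not analysed here. Lists of elastase genes and of inhibitors hold genes that many cell types express.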

Additional observations from a re-analysis of the deposited data

How the results depend on the processing

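Over 14 alternatives the log2 fold change of each of the 10 genes stayed above 0. The number of the 10 called was 5 with no filter on low counts (Eln, Fbn1, Mfap4, Mfap5 and Loxl1), 2 with DESeq2 (Eln and Mfap4), and 0 to 2 with 1 library left out. It was 0 without saline replicate 1 or C1q replicate 1 and 2 without saline replicate 3. Across all genes the calls were 373 with no filter (158 higher and 215 lower), 36 with DESeq2, and 0 to 10 with 1 library left out. Of the 64 further genes, 7 were called with no filter (Adamtsl2, Ctsk, Mmp12, Mmp14, Mmp2 and Timp1 higher, Atox1 lower), 3 with DESeq2, all higher, and 0 to 1 with 1 library left out; the 0 came without saline replicate 1 or without any of the 3 C1q replicates. The cause of these changes was not tested. All of the other fits, with 3 other scalings, a filter of 5 CPM in 3 samples, limma-voom and a robust fit, called Eln alone of the 10. The number of the 10 genes with separate groups was 6 to 7 under the other scalings and 8 whichever library was left out, where 12.3% to 14.1% of all genes were then above. The log2 ratios of Eln to the other genes moved by less than the spread between replicates with a count of 2 added or without any 1 library. Low depth limits Fbln2 most. No paired analysis was possible because the labels give the groups no shared replicate numbers.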
